A study of Mus musculus with 9 samples.

Results

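The respiratory chain and ATP synthase subunits encoded in the nucleus were represented in the mouse liver data by 106 of 28815 probe sets, which stand for 82 genes. They were taken by gene symbol alone, as the probe sets with a single symbol that begins with Nduf (series a, b, c, s and v), Uqcr, Atp5 or Cox4 to Cox8, or that is Sdha to Sdhd or Cyc1. Complex I had 37 probe sets (33 genes), complex II 4 (4 genes), complex III 12 (9 genes), complex IV 23 (19 genes) and complex V 30 (17 genes). Ndufa4 and Ndufa4l2 were counted with complex IV. Another 6 probe sets that match these names carried several symbols and were left out. Complexes I and II pass electrons from NADH and succinate to coenzyme Q, complex III passes them on to cytochrome c, and complex IV passes them to oxygen. Complexes I, III and IV pump protons across the inner mitochondrial membrane, and complex V, the ATP synthase, uses the returning protons to make ATP. Hepatocytes rely on this chain for gluconeogenesis, urea synthesis and fatty acid oxidation, and most of its subunits are encoded by nuclear genes and imported into the mitochondrion.

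The livers came from female mice aged 15 to 16 months on a C57BL/6J background, 1 mouse per array, in 3 groups of 3 arrays. WTCR mice were wild type and ate a calorie-restricted diet, reduced in steps over a few weeks. Dgat1-/-AL mice lacked Dgat1 in all tissues and were fed chow ad libitum. WTAL mice were wild type and were also fed ad libitum. The product of Dgat1 joins a fatty acid to diacylglycerol, which completes a triglyceride. The interval between the last meal and collection of the livers was not given in the sources used here, so feeding time and restriction cannot be told apart in WTCR. The study asked whether restriction and Dgat1 deficiency alter the same pathways.

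Dgat1 had a log2 signal of 8.89, 8.76 and 8.56 in WTCR, 6.14, 5.84 and 5.39 in Dgat1-/-AL, and 7.86, 5.67 and 8.04 in WTAL, with replicates 1 to 3 given in that order here and in all values that follow. The array labelled WTAL replicate 2 lay among the knockout arrays, against its label. Values without it are given for the number of members called against WTAL, the calls and medians by complex and some single genes. Counts by p alone, by adjusted p, without overlap and by parts of a complex were made with it only. Other single values against WTAL also changed without it. In WTCR against WTAL the log2 fold change moved from 0.65 to 0.78 for Ndufa10, from 0.43 to 0.51 for Ndufs7 and from -0.03 to -0.15 for Atp5e. Median log2 signals of the 9 arrays lay between 5.80 and 5.84. Quantile normalization makes these medians alike, so they are no check of the arrays. Alb, which encodes albumin, the main hepatocyte product, lay between 14.21 and 14.28 on all 9 arrays. Not all hepatocyte markers were as even, and markers of other liver cells moved with the groups. Of 9 Kupffer cell and macrophage markers 3 were lower and 0 higher in WTCR than in WTAL, with mean log2 signals of 7.83 to 8.50 in WTCR, 7.97 to 8.40 in Dgat1-/-AL and 8.14 to 8.83 in WTAL. Of 6 lymphocyte markers 3, of 6 stellate cell markers 2 and of 8 endothelial probe sets 1 were lower in WTCR than in WTAL, and none of these was higher. Of all probe sets 3.81% were called lower and 4.25% higher by the rule given below. Of 10 hepatocyte markers 1 was higher and 0 lower, with a median log2 fold change of 0.07. Their mean log2 signals were 13.04 to 13.24 in WTCR, 12.91 to 13.22 in Dgat1-/-AL and 12.90 to 12.98 in WTAL. The part of cell composition in the results below was not tested. In bulk liver RNA, fewer cells of a type and less RNA per cell cannot be told apart.

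Calorie restriction was accompanied by higher mRNA of subunits in all 5 complexes. A call required both a fold above 1.3 and an unadjusted limma p below 0.05. By this rule 34 of the 106 probe sets (32.1%) were higher in WTCR livers than in WTAL livers, where the share among all 28815 probe sets was 4.25%, and 0 were lower, where the share was 3.81%. By p alone 51 were higher (8.36% of all) and 0 lower (6.69%). At an adjusted p under 0.05 (Benjamini-Hochberg, over all probe sets) 19 were higher (1.62%) and 0 lower (1.41%). All 3 WTCR arrays lay above all 3 WTAL arrays in 67 of the 106 (11.2% of all probe sets), and in 0 did they lie below (8.44%). The log2 fold change was positive in 92 (50.9%). The median log2 fold change of the members was 0.30 (1.23-fold), with a range of -0.15 to 0.76, and that of all probe sets was 0.00. Without the array labelled WTAL replicate 2, 35 were higher.

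All 5 complexes shifted upward, and differences between them were not tested. The median log2 fold change in WTCR against WTAL was 0.34 for complex I, 0.31 for complex II, 0.20 for complex III, 0.25 for complex IV and 0.36 for complex V. With 1 probe set per gene it was 0.21 for complex I and 0.30 for complex III, so that the order of the complexes depended on how genes with several probe sets were counted. Without the array labelled WTAL replicate 2 the medians were 0.30, 0.37, 0.23, 0.23 and 0.38 for complexes I to V. Calls numbered 13 of 37, 1 of 4, 3 of 12, 6 of 23 and 11 of 30 in complexes I to V, all higher. They numbered 13, 1, 3, 7 and 11 without the array labelled WTAL replicate 2. Among all probe sets 4.25% were called higher with all arrays. Of the 19 probe sets with an adjusted p under 0.05, 7 belonged to complex I, 1 to complex II, 2 to complex III, 0 to complex IV and 9 to complex V. In each complex the median deviation from the WTAL mean was higher on every WTCR array than on every WTAL array (0.10 to 0.43 against -0.16 to 0.10, as the plot of medians by complex and array shows). The fold changes of the single probe sets are plotted by complex for the 3 comparisons.

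**Figure D1:**
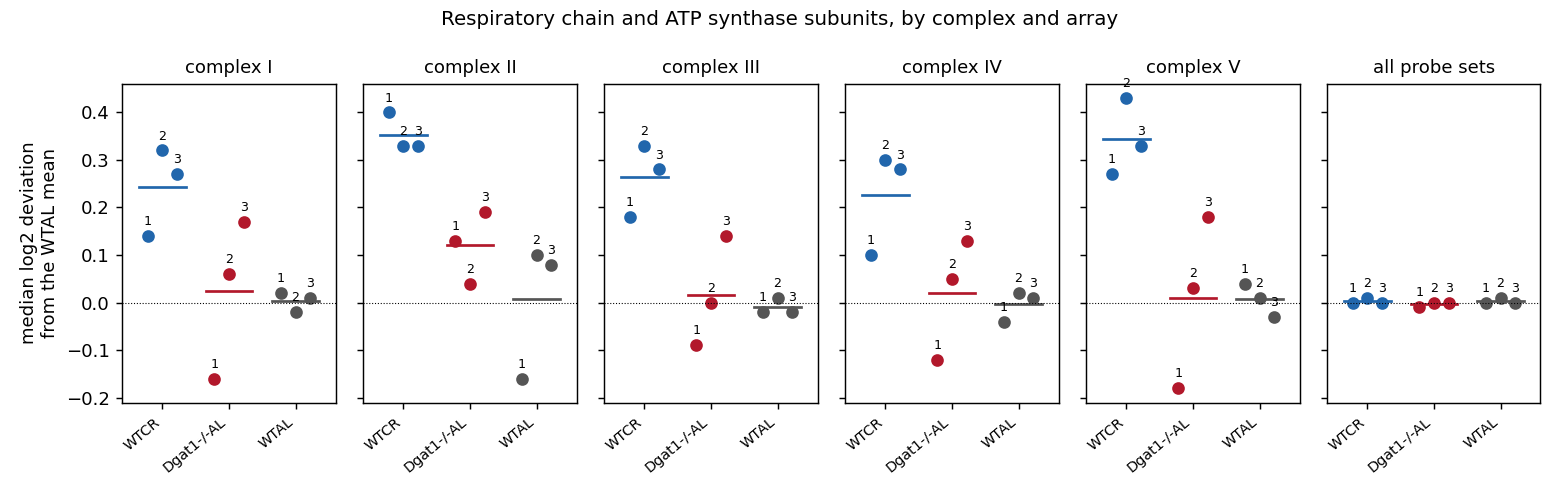
Median log2 deviation of the probe sets of each complex, and of all 28815 probe sets, from their WTAL mean (y axis), drawn for the 9 arrays separately within their groups (x axis), with replicate numbers beside the points and the mean of the 3 arrays as a line. In every complex the 3 WTCR arrays lie above the 3 WTAL arrays. Dgat1-/-AL replicate 1 is the lowest of its group in all complexes but II. All probe sets stay between -0.01 and 0.01, where quantile normalization makes the signal distributions of the arrays alike.

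**Figure D2:**
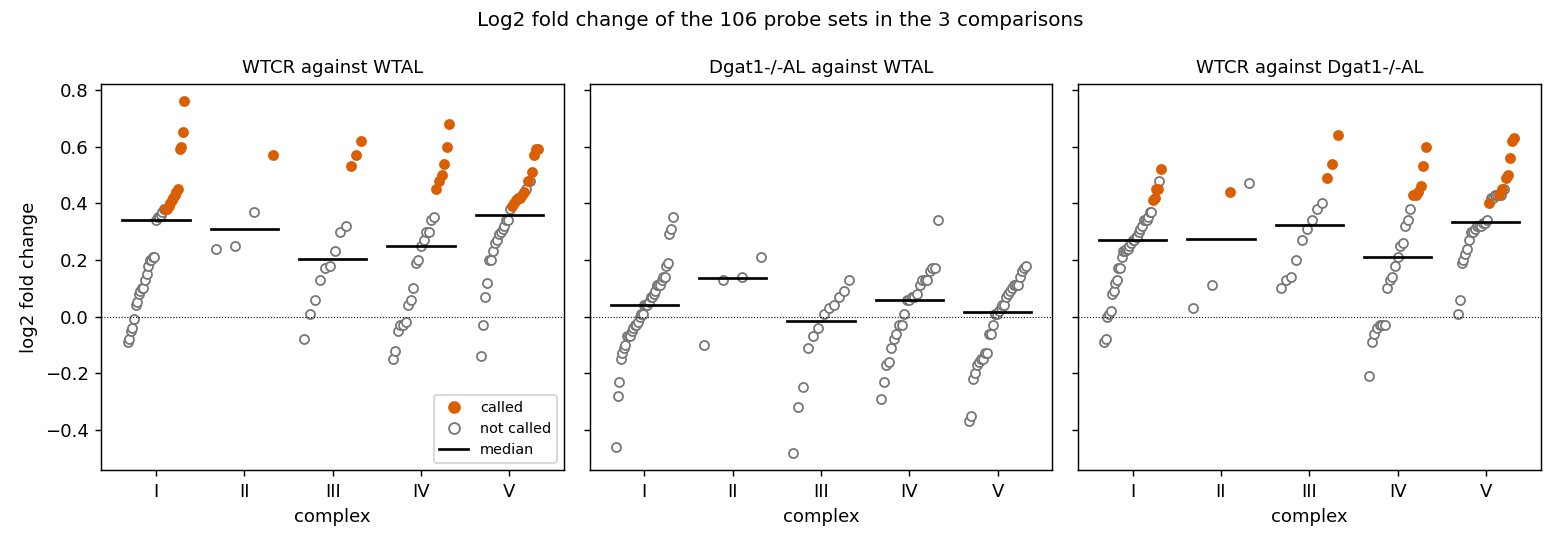
Log2 fold change (y axis) of each of the 106 probe sets by complex (x axis) in WTCR against WTAL, Dgat1-/-AL against WTAL and WTCR against Dgat1-/-AL, filled where called (fold over 1.3 and unadjusted p under 0.05), with the median of each complex as a line. The filled points number 34, 0 and 23, and all lie above 0.

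Many nuclear genes of the respiratory chain share binding motifs for a few transcription factors near their start sites, among them NRF1, the ETS factor GABP, the estrogen-related receptors (ERR) and YY1. Promoter windows of 300 bases (250 before to 50 after the start, RefSeq, GRCm38.p6) were held for 66 of the 82 genes, 71 windows in all. On either strand, the NRF1 motif (GCGCA and GCGC with any base between) occurred in 23.9% of these windows (4.6% of 32851 windows of all genes), the ETS motif CCGGAAG in 23.9% (8.86%), the ERR motif TCAAGGTCA in 2.82% (0.423%) and the YY1 motif AAGATGGC in 14.1% (2.75%). Any of the 4 was found in 53.5% of the windows, against 15.1% of all. Among the members, windows of genes called higher in WTCR held a motif in 48.0% (12 of 25) and those of the other genes in 56.5%, so that the share was not higher among the called genes. The windows of 4 called subunits are shown, 3 with different matches and 1 with none, so that the motifs can be set beside the signals given further on. The matches are in capitals. The windows belong to Sdhd (chr9:50603800-50604099, minus strand), Atp5g2 (chr15:102670998-102671297, minus strand), Ndufb6 (chr4:40279372-40279671, minus strand) and Ndufb5 (chr3:32736813-32737112, plus strand).
Sdhd: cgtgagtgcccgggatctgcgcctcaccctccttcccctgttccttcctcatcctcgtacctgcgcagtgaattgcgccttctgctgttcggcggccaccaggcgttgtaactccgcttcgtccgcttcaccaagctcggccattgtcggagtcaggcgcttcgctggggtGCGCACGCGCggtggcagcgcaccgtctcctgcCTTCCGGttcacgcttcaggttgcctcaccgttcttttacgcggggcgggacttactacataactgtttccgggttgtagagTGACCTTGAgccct
Atp5g2: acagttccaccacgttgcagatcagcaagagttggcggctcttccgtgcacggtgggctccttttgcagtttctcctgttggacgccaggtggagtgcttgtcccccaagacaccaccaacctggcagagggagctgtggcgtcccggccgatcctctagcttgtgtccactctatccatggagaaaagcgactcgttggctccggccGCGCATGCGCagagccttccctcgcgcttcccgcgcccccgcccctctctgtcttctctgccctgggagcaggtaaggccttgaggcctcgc
Ndufb6: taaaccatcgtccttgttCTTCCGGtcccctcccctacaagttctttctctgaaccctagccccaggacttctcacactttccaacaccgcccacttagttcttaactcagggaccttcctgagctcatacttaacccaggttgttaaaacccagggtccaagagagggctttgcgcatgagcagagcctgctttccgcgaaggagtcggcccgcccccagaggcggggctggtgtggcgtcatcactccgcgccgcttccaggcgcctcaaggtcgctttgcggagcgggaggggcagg
Ndufb5: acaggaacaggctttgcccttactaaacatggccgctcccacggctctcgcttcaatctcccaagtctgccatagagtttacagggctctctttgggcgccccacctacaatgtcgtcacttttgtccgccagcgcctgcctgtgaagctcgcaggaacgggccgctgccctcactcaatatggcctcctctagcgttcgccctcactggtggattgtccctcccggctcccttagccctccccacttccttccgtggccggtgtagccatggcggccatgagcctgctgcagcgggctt
Sdhd held 3 matches, in the order NRF1, ETS (reverse strand) and ERR (reverse strand). Atp5g2 held 1 NRF1 match and Ndufb6 1 ETS match on the reverse strand, while Ndufb5 held 0 matches to the 4 motifs. No match overlapped another in these windows. A match is a description of the letters only.

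In complex I, calls were spread over the core subunits, which form the arm with the flavin and the iron-sulfur clusters, and the accessory subunits. Among all probe sets 4.25% were called higher in WTCR than in WTAL. Of 7 probe sets of 6 core genes 6 were called (median log2 fold change 0.41). Of 30 accessory probe sets 7 were called (median 0.20). The difference between core and accessory subunits was not tested. Ndufv1, the flavoprotein subunit that accepts electrons from NADH, had log2 signals of 10.39, 10.04 and 10.06 in WTCR and 9.20, 9.49 and 9.53 in WTAL. The groups did not overlap, and its log2 fold change of 0.76 ± 0.15 (SE, n = 3 per group; adjusted p = 0.034, limma) was the highest of the 106. This SE and those that follow come from 1 spread fitted over all 9 arrays, those of Dgat1-/-AL included. Ndufs1, the core subunit with the most iron-sulfur clusters, was 1.37-fold higher (0.45 ± 0.09, adjusted p = 0.031). Ndufs7, which holds the last cluster before coenzyme Q, was higher by 0.43 ± 0.09 (adjusted p = 0.047), Ndufs3 by 0.40 and 0.38 at its 2 probe sets, and Ndufv2 by 0.41. Ndufs8 was the exception, with signals of 9.20, 9.26 and 9.10 in WTCR and 9.19, 9.16 and 9.34 in WTAL (-0.04 ± 0.08).

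Ndufb5, an accessory subunit of the membrane arm, had 10.30, 10.37 and 10.29 in WTCR and 9.82, 9.95 and 9.93 in WTAL, with no overlap between the groups (0.42 ± 0.06, adjusted p = 0.015). Ndufb6, a subunit of the same arm, had 10.67, 10.59 and 10.63 in WTCR and 9.89, 10.01 and 10.18 in WTAL (0.60 ± 0.12, adjusted p = 0.038). Ndufa8 and Ndufa10, also accessory, were higher by 0.59 ± 0.12 (adjusted p = 0.040) and 0.65 ± 0.16 (adjusted p = 0.076). Ndufv3, Ndufc1 and Ndufa11 were the other called accessory genes (0.44, 0.38 and 0.39), and at their second probe sets Ndufc1 gave 0.35 and Ndufa11 0.09, not called. Of the 30 accessory probe sets 17 lay above WTAL on all 3 WTCR arrays (11.2% of all probe sets). Among them were uncalled ones such as Ndufa9 (0.34 ± 0.09) and Ndufa6 (0.35 ± 0.11), which were below the minimum fold. Others overlapped. Ndufa1, which is needed for assembly of the membrane arm, had 9.90, 10.37 and 10.08 in WTCR and 10.61, 9.86 and 10.15 in WTAL (-0.09 ± 0.22), and -0.27 without the array labelled WTAL replicate 2, so that its groups overlapped and its WTAL arrays were widely spread. Ndufa13 was at 8.68, 8.68 and 8.65 in WTCR and 8.68, 8.67 and 8.70 in WTAL (-0.01 ± 0.07).

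In complex II, which also serves the citric acid cycle as succinate dehydrogenase, only the small membrane anchor Sdhd was called. It had 10.86, 10.68 and 10.65 in WTCR and 10.05, 10.16 and 10.26 in WTAL (0.57 ± 0.08, 1.49-fold, adjusted p = 0.014), with every WTCR array above every WTAL array. Sdhc, the other anchor, had 10.80, 10.63 and 10.73 in WTCR against 10.31, 10.60 and 10.49 in WTAL (0.25 ± 0.09), which is below the minimum fold. The iron-sulfur subunit Sdhb had 11.04, 11.33 and 11.23 in WTCR and 10.66, 10.95 and 10.88 in WTAL (0.37 ± 0.21). The flavoprotein subunit Sdha gave 0.24 ± 0.16, with WTCR signals of 11.78, 11.33 and 11.54 that overlapped the WTAL signals of 11.05, 11.41 and 11.49.

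In complex III, Cyc1, the cytochrome c1 subunit that hands electrons to cytochrome c, had the smallest p of all members. Its signals were 11.21, 11.21 and 11.35 in WTCR and 10.58, 10.72 and 10.59 in WTAL (0.62 ± 0.07, 1.54-fold, adjusted p = 0.0085). The lowest WTCR array was well above the highest WTAL array. Uqcrc1, a core subunit without a redox centre, had 11.42, 11.25 and 11.45 in WTCR and 10.61, 10.95 and 10.85 in WTAL (0.57 ± 0.12, adjusted p = 0.047). Uqcr10, a small subunit, was higher by 0.53 ± 0.12 (adjusted p = 0.053). The Rieske iron-sulfur protein Uqcrfs1 and the core subunit Uqcrc2 gave 0.30 and 0.32, both below the minimum fold. Uqcrh, the hinge protein, gave -0.08 ± 0.23, with 11.27, 11.80 and 11.47 in WTCR and 12.00, 11.30 and 11.46 in WTAL. With all arrays it was the only probe set of complex III below 0. Without the array labelled WTAL replicate 2 it gave -0.22, and the probe sets of Uqcr11 gave -0.08 and -0.02.

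In complex IV, several subunits exist as isoforms of which one is used in most tissues and another in muscle, brown fat, lung or testis. Among all probe sets 4.25% were called higher in WTCR than in WTAL. Of the 15 probe sets of general forms 5 were called (median log2 fold change 0.30). Of 8 isoforms of other tissues, with Ndufa4l2 counted among them, 1 was called (median 0.00). The difference was not tested, and 1 call among 8 probe sets says little. Cox7b, a small subunit, had 9.76, 9.88 and 9.90 in WTCR and 9.31, 9.28 and 9.15 in WTAL (0.60 ± 0.17, adjusted p = 0.11), and 0.54 ± 0.13 at a second probe set. Cox5b, a nuclear subunit on the matrix side, was higher by 0.50 and 0.45 at its 2 probe sets (adjusted p = 0.053 and 0.064). Cox8a, the general form of the smallest subunit, had 10.02, 9.68 and 9.60 in WTCR and 9.04, 9.54 and 9.29 in WTAL (0.48 ± 0.16, adjusted p = 0.19). No probe set of complex IV had an adjusted p under 0.05 (1.62% of all probe sets were higher at this threshold). At an unadjusted limma p under 0.05, 9 were higher (8.36% of all). Cox4i1 gave 0.27 ± 0.15, Cox6a1 0.20 ± 0.12, Cox6b1 0.19 ± 0.10 and Cox7a2 0.35 ± 0.09. Cox7a2l gave -0.02 and -0.03. Ndufa4 gave 0.34 ± 0.08, below the minimum fold.

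Cox7a1, known as the isoform of heart and skeletal muscle and also of brown fat, was the one isoform of another tissue that was called. It lay between 6.89 and 7.03 in WTCR, and had 6.11, 6.34 and 6.66 in Dgat1-/-AL and 6.08, 6.25 and 6.55 in WTAL. Every WTCR array was above every other array (0.68 ± 0.16 against WTAL, 1.60-fold, adjusted p = 0.058). The other isoforms of this kind gave -0.15 (Cox4i2), -0.05 (Cox6a2), -0.12 (Cox6b2), -0.03 (Cox7b2), 0.06 (Cox8b) and 0.04 (Cox8c), none called. Ndufa4l2, which was counted with them, gave 0.10 and was not called. Of 5 skeletal muscle markers and 6 adipocyte markers 0 were higher (4.25% of all probe sets) or lower (3.81%) in WTCR than in WTAL. The mean signal of the muscle markers was 5.53 to 5.64 in WTCR, 5.50 to 6.00 in Dgat1-/-AL and 5.54 to 5.59 in WTAL. Dgat1-/-AL replicate 3, at 6.00, also had the highest Cox7a1 signal of its group (6.66), and the part of muscle RNA in it was not tested. That of the adipocyte markers 4.47 to 4.55 in WTCR and 4.50 to 4.57 in WTAL. Ucp1, the defining gene of brown fat, lay at 4.03, 4.13 and 3.98 in WTCR and 4.17, 4.18 and 4.12 in WTAL.

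In complex V, 3 of 5 probe sets of the catalytic head and its stalk were called higher in WTCR than in WTAL. So were 5 of 6 of the ring that turns with the protons. Among all probe sets the share was 4.25%. Atp5b, the catalytic beta subunit, had 13.19, 13.23 and 13.42 in WTCR and 12.75, 12.94 and 12.72 in WTAL (0.48 ± 0.09, adjusted p = 0.030). Atp5a1, the alpha subunit beside it, was higher by 0.41 ± 0.09 (adjusted p = 0.047) and Atp5d, the delta subunit of the central stalk, by 0.59 ± 0.18 (adjusted p = 0.15). Atp5e, the epsilon subunit of the same stalk, gave -0.03 ± 0.22 and Atp5c1, the gamma subunit, 0.34 ± 0.10. The c ring is encoded by 3 genes that differ in their import sequence and give the same mature protein. The 5 called probe sets, those of Atp5g1 and Atp5g2, had an adjusted p under 0.05. Atp5g2 had 11.18, 11.19 and 11.04 in WTCR and 10.46, 10.66 and 10.53 in WTAL at one probe set (0.59 ± 0.10, adjusted p = 0.024), and 0.57 and 0.51 at its other probe sets. Atp5g1 was higher by 0.42 ± 0.07 and 0.40 ± 0.06, and Atp5g3 gave 0.34 ± 0.09. The probe sets of Atp5g1 and those of Atp5g2 gave nearly the same values, can detect near-identical copies as well, and are not independent measurements.

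Of the 19 probe sets of the other complex V subunits 3 were called higher (4.25% of all probe sets). On all 3 WTCR arrays 10 lay above WTAL (11.2% of all). Atp5o, the stalk subunit that holds the head in place, had 9.99, 10.13 and 10.04 in WTCR and 9.64, 9.63 and 9.57 in WTAL (0.44 ± 0.09, adjusted p = 0.042). Atp5pb, the b subunit of the same stalk, was higher by 0.43 and 0.39. Atp5l, the g subunit of the membrane part, had 6 probe sets with log2 fold changes of 0.20 to 0.31 and standard errors of 0.26 to 0.28, none called. Atp5k, the e subunit, gave -0.14 ± 0.26, with 10.16, 10.77 and 10.54 in WTCR and 10.84, 10.50 and 10.55 in WTAL.

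**Figure D3:**
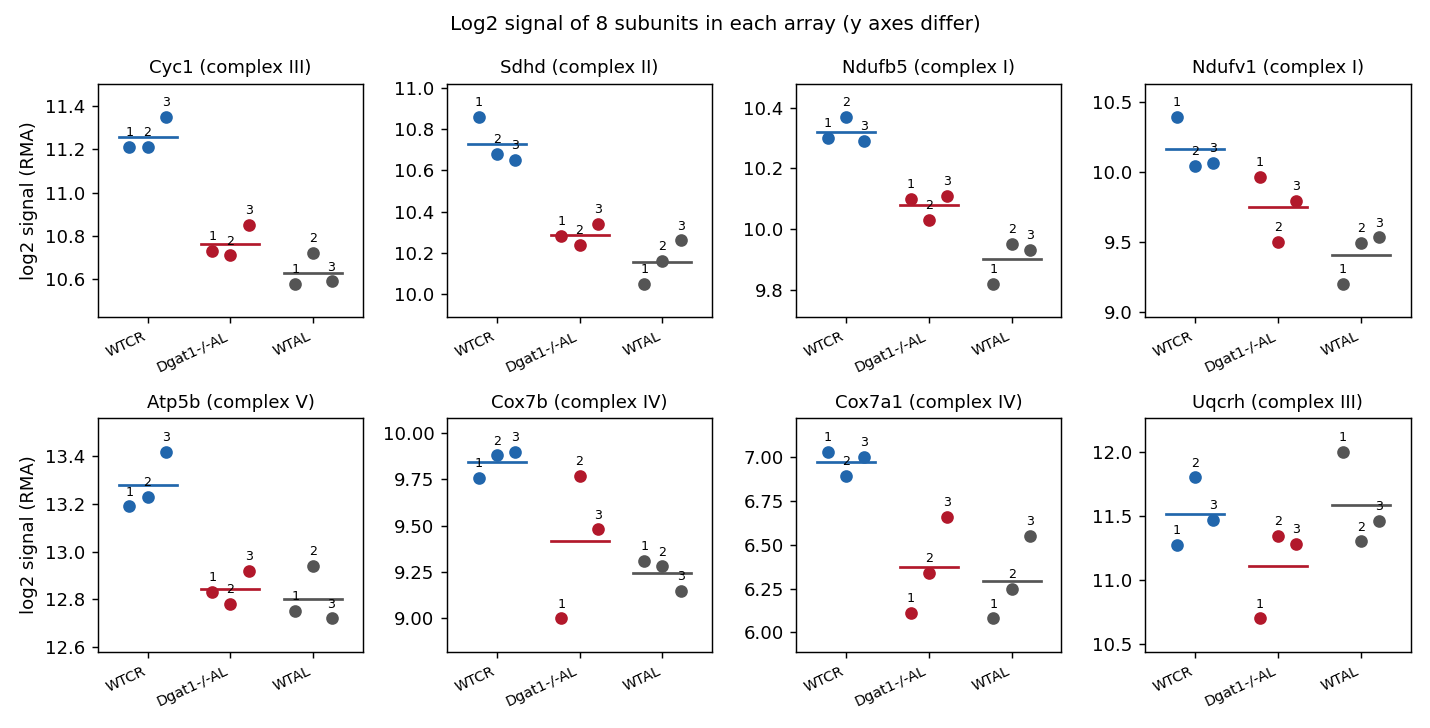
RMA log2 signal (y axis, a scale of its own in each panel) of 8 subunits, drawn for the 9 arrays separately within their groups (x axis), with replicate numbers beside the points and group means as lines. WTCR lies above both ad libitum groups without overlap for Cyc1, Sdhd, Ndufb5, Ndufv1, Atp5b and Cox7a1, the second Cox7b array of Dgat1-/-AL reaches the WTCR values, and the groups overlap for Uqcrh.

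Of the 34 calls, 20 held in all 9 fits that left out 1 array each, among them those of Ndufv1, Ndufb5, Ndufb6, Ndufa8, Ndufa10, Sdhd, Cyc1, Uqcrc1, Uqcr10, Cox7a1, Cox7b, Atp5b, Atp5d, Atp5o and Atp5g2. The other 14 had log2 fold changes of 0.38 to 0.48. The plot of 8 subunits by array shows members of both kinds of spread, from Cyc1, with narrow groups, to Uqcrh, with overlapping ones. Leaving out WTAL replicate 1 ended 9 calls, those of Ndufs3 (0.31 and 0.29 without it), Ndufs7 (0.38), Ndufc1 (0.35), Cox5b (0.36 at one probe set), Cox8a (0.35), Atp5a1 (0.37) and Atp5pb (0.33 at both). Without the array labelled WTAL replicate 2, Atp5g1 (0.37 at one probe set) and Ndufa11 (0.33) were not called, and without WTAL replicate 3, Ndufc1 (0.35) and Ndufv2 (0.35) were not. Leaving out WTCR replicate 1 ended the calls of Cox8a (0.35) and of one Ndufs3 probe set (0.37). Leaving out WTCR replicate 2 ended those of Atp5g1 (0.37), Ndufa11 (0.35), Ndufs3 (0.37) and Ndufv3 (0.38), and leaving out WTCR replicate 3 those of Atp5a1 (0.37), Atp5pb (0.33 and 0.37), Ndufc1 (0.30), Ndufs1 (0.37) and Ndufv2 (0.38). Leaving out a Dgat1-/-AL array ended none. The signs of these log2 fold changes stayed positive in those fits.

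No subunit was called in Dgat1-/-AL livers against WTAL livers. Of the 106 probe sets 0 were higher in Dgat1-/-AL livers than in WTAL livers (0.465% of all probe sets) and 0 were lower (0.76%). At an unadjusted limma p under 0.05 3 were higher and 0 lower, against 1.95% and 2.62% of all, and at an adjusted p under 0.05 0 members and 0 of all probe sets passed. All 3 Dgat1-/-AL arrays lay above all 3 WTAL arrays in 4 members (3.16% of all) and below in 2 (3.86%), and 62 had a positive log2 fold change (49.1%). The median log2 fold change was 0.03, with a range of -0.48 to 0.35, and by complex it was 0.04 for I, 0.13 for II, -0.01 for III, 0.06 for IV and 0.02 for V. Without the array labelled WTAL replicate 2 it was 0.03, 0.17, 0.00, 0.04 and 0.02 for complexes I to V. This comparison and that of WTCR share the WTAL arrays. In Dgat1-/-AL 3 of the 9 macrophage markers were lower than in WTAL (0.76% of all probe sets), and 2 of the 8 endothelial probe sets were higher (0.465%) and 2 lower, and their part was not tested.

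The 3 probe sets at an unadjusted limma p under 0.05 were complex I subunits that also rose in WTCR. Ndufv1 had 9.96, 9.50 and 9.79 in Dgat1-/-AL and 9.20, 9.49 and 9.53 in WTAL (0.35 ± 0.15, adjusted p = 0.97). Ndufb6 had 10.04, 10.43 and 10.48 in Dgat1-/-AL and 9.89, 10.01 and 10.18 in WTAL (0.29 ± 0.12). Ndufb5 had 10.10, 10.03 and 10.11 in Dgat1-/-AL, all above the 9.82, 9.95 and 9.93 of WTAL, but by only 0.18 ± 0.06. At the low end, Uqcrh gave -0.48, with 10.70, 11.34 and 11.28 in Dgat1-/-AL and 12.00, 11.30 and 11.46 in WTAL, and Ndufa1 gave -0.46, with 9.40, 9.81 and 10.03 in Dgat1-/-AL and 10.61, 9.86 and 10.15 in WTAL. In both genes Dgat1-/-AL replicate 1 was the lowest and WTAL replicate 1 the highest of these arrays.

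The count of 0 moved with single arrays. Without the array labelled WTAL replicate 2, Cox8a (0.47) and Ndufa10 (0.45) were called higher and Ndufa1 (-0.63) and Uqcrh (-0.62) lower. Without Dgat1-/-AL replicate 1, 5 probe sets were called higher, which are 3 of Atp5md (0.38, 0.40 and 0.47), Cox7b (0.38) and Ndufb6 (0.43). Without Dgat1-/-AL replicate 2, Cox8a (0.43), Ndufa10 (0.44) and Ndufv1 (0.47) were higher. Without Dgat1-/-AL replicate 3, Atp5e (-0.52), Atp5k (-0.61) and Ndufa1 (-0.60) were lower, and without WTAL replicate 3 Ndufv1 (0.41) was higher. A p over the threshold does not show that the levels were equal.

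Set against each other directly, WTCR livers had higher subunit mRNA than Dgat1-/-AL livers in 23 of the 106 probe sets (21.7%), where the share among all probe sets was 4.66%, and lower in 0, where it was 3.93%. By p alone 47 were higher (8.96% of all) and 0 lower (6.87%). At an adjusted p under 0.05 13 were higher (1.77%) and 0 lower (1.29%). All 3 WTCR arrays lay above all 3 Dgat1-/-AL arrays in 42 (9.05% of all probe sets) and below in 0 (7.1%), and 97 had a positive log2 fold change (51.8%). The median log2 fold change was 0.30, and 0.16 without Dgat1-/-AL replicate 1. By complex it was 0.27 for I, 0.28 for II, 0.32 for III, 0.21 for IV and 0.33 for V, and without Dgat1-/-AL replicate 1 it was 0.17 for III and 0.14 for V. Calls numbered 5 of 37, 1 of 4, 3 of 12, 6 of 23 and 8 of 30 in complexes I to V. In these 2 groups arrays of the same replicate number deviated together. With the replicate number as a block over their 6 arrays, 32 members were called higher (5.32% of all probe sets), all 23 among them, and 0 members had an adjusted p under 0.05, where 203 of all probe sets did. Of the 8 endothelial probe sets 5 were lower and 1 higher in WTCR than in Dgat1-/-AL, and their part was not tested.

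In this comparison all 6 probe sets of the c ring had an adjusted p under 0.05 in the fit without the block (median log2 fold change 0.53). With the replicate block over the 6 arrays their adjusted limma p was 0.065 to 0.12. The adjusted p values that follow also come from the fit without the block. Atp5g2 had 11.02, 11.06 and 10.89 in WTCR and 10.57, 10.31 and 10.20 in Dgat1-/-AL at one probe set (0.63, 1.55-fold, adjusted p = 0.018), and Atp5g3 had 12.42, 12.55 and 12.41 in WTCR and 11.91, 11.85 and 12.15 in Dgat1-/-AL (0.49, adjusted p = 0.030). Uqcr10 had the highest value of the 106, with 9.05, 9.35 and 8.98 in WTCR and 8.66, 8.30 and 8.51 in Dgat1-/-AL (0.64, adjusted p = 0.029). Cyc1 had 11.21, 11.21 and 11.35 in WTCR and 10.73, 10.71 and 10.85 in Dgat1-/-AL (0.49, adjusted p = 0.015), and Sdhd gave 0.44 (adjusted p = 0.028). None of these groups overlapped. Atp5mpl, a small proteolipid of the ATP synthase, was higher by 0.50 (adjusted p = 0.016), with 11.36, 11.57 and 11.59 in WTCR and 10.99, 10.94 and 11.08 in Dgat1-/-AL. Ndufa8 was higher by 0.52, Uqcrc1 by 0.54, Cox7a1 by 0.60 and Ndufs7 by 0.42.

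Of the 23 direct calls 12 held in all 9 fits that left out 1 array. Several calls of general complex IV subunits rested on Dgat1-/-AL replicate 1. Without it Cox4i1 (0.31, against 0.44 with all arrays), Cox5a (0.35 against 0.46), Cox6a1 (0.37 against 0.43), Cox7b (0.38 against 0.53, and 0.22 against 0.43) and Ndufa12 (0.36 against 0.45) were not called. Without Dgat1-/-AL replicate 2, Ndufv1 (0.29), Ndufv3 (0.35), Atp5d (0.30), Atp5o (0.30) and Ndufa12 (0.40) were not, and without Dgat1-/-AL replicate 3 Atp5d (0.41) and one Cox7b probe set (0.46) were not, while the count of calls rose to 33. The Atp5d call was also lost without WTCR replicate 1 (0.35) or 2 (0.48) or WTAL replicate 3 (0.45), Ndufv1 without WTCR replicate 1 (0.30), and Atp5b (0.36) and one Cox7b probe set (0.40) without WTCR replicate 3. Without WTCR replicate 2, Atp5o (0.36), Cox4i1 (0.35), Cox6a1 (0.31), Cox7b (0.41 at one probe set) and Ndufa12 (0.31) were not called.

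The members varied more between Dgat1-/-AL mice (median SD 0.191) than between WTCR (0.123) or WTAL mice (0.101), where all probe sets had 0.124, 0.104 and 0.0974. The deviation of Dgat1-/-AL replicate 1 from the mean of the other Dgat1-/-AL arrays ran from -0.94 to 0.56 over the members. It lay over 0.5 below that mean in 29 probe sets of 20 genes. Among these were Ndufa1, Ndufb2, Ndufc2, Uqcrh, Uqcrq, Cox7a2l, Atp5e, Atp5k and Atp5l. Of the 29, 1 was called higher in WTCR against WTAL (Cox7b), with a median log2 fold change of 0.20. With only the 6 WTCR and WTAL arrays in the fit, whose spread then leaves out Dgat1-/-AL, 5 of the 29 were called (Cox7b, Ndufs4 and 3 probe sets of Atp5md), and the counts of the other classes did not change. In 25 probe sets Dgat1-/-AL replicate 1 lay above the mean of the other arrays of its group, and 20 of these were called, with a median of 0.44. Of the 52 in between, 13 were called, with a median of 0.26. Among all probe sets 4.25% were called higher in WTCR than in WTAL. The 0.5 limit was set after the values were seen.

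The same contrast among the subunits ran through other arrays. Over the 106 probe sets, the deviation of Dgat1-/-AL replicate 1 from its group correlated with that of WTCR replicate 1 at r = 0.77 (rho 0.73) and with that of WTAL replicate 1 at r = -0.74 (rho -0.73). Over all 28815 probe sets the values were 0.48 and -0.32. With the log2 fold change of WTCR against WTAL the correlation was 0.37 (rho 0.40), against 0.13 over all probe sets, and the 2 measures share no array. Without the array labelled WTAL replicate 2 the correlations over the members were -0.73 with the deviation of WTAL replicate 1 and 0.46 with the fold change. Probe sets of one gene and genes of one complex are not independent, so these are descriptions, and the plot of single-array deviations shows them. With the replicates 1 of all groups left out, 41 members were higher in WTCR than in WTAL, 24 higher in WTCR than in Dgat1-/-AL, and 6 higher in Dgat1-/-AL than in WTAL. RNA quality values of these livers were not used here, and their part in the pattern was not tested.

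**Figure D4:**
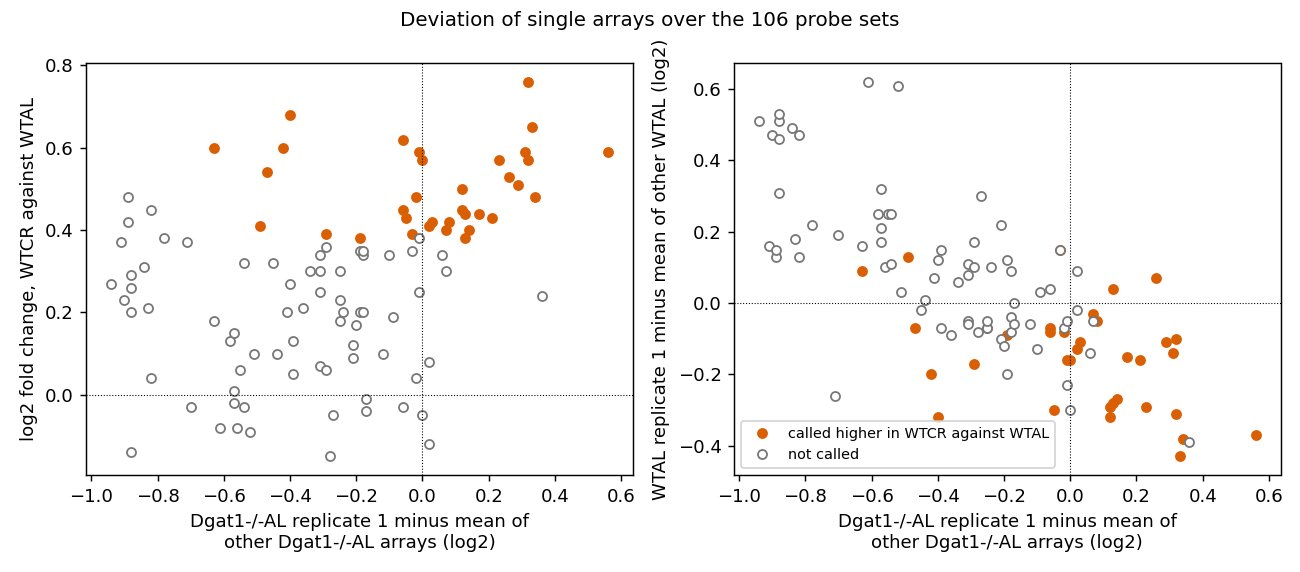
Deviation of Dgat1-/-AL replicate 1 from the mean of the other Dgat1-/-AL arrays (x axes, log2) for each of the 106 probe sets, against the log2 fold change of WTCR over WTAL (left) and against the deviation of WTAL replicate 1 from the mean of the other WTAL arrays (right, log2), filled where called higher in WTCR against WTAL. Of the filled points 20 of 34 lie right of 0 on the x axis, and the points in the right panel run from upper left to lower right (r = -0.74).

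The mitochondrial genome encodes further core subunits of complexes I, III, IV and V, of which COX2 and ND3 were analysed here, with 2 probe sets each. Of these 4 probe sets 0 were called in any comparison. Among all probe sets 4.25% were higher and 3.81% lower in WTCR than in WTAL. The shares were 0.465% and 0.76% in Dgat1-/-AL against WTAL and 4.66% and 3.93% in WTCR against Dgat1-/-AL. At such shares a count of 0 among 4 probe sets says little. In WTCR against WTAL the log2 fold change was -0.02 for both COX2 probe sets and -0.10 and -0.11 for ND3. COX2 had 13.54, 13.62 and 13.67 in WTCR and 13.70, 13.61 and 13.58 in WTAL. In Dgat1-/-AL against WTAL the log2 fold changes of the 4 probe sets were -0.05 to -0.03.

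Assembly factors, which insert cofactors and join subunits without staying in the complex, had a median near 0. The list also held Ndufab1, the acyl carrier subunit of complex I, which the naming rule leaves out (0.21 and 0.16 in WTCR against WTAL, not called). Of its 49 probe sets 4 were higher (4.25% of all probe sets) and 0 lower (3.81%) in WTCR than in WTAL, with a median log2 fold change of 0.02, or 0.01 for the 47 without Ndufab1. The number lower was 3 without the array labelled WTAL replicate 2, 2 without WTAL replicate 1 or WTCR replicate 1 and 1 without WTCR replicate 2. Ndufaf4, an assembly factor of complex I, had 8.67, 8.81 and 8.99 in WTCR, 7.66, 7.68 and 7.91 in Dgat1-/-AL and 7.94, 8.01 and 7.81 in WTAL (0.90 against WTAL, adjusted p = 0.0085, and 1.07 against Dgat1-/-AL, adjusted p = 0.0045), with WTCR far above both other groups. Cox10, which makes heme O, the precursor of the heme of complex IV, was higher by 0.50 (adjusted p = 0.024). Sdhaf1, an assembly factor of complex II, was higher by 0.59 (adjusted p = 0.059). Oxa1l, which inserts proteins into the inner membrane, was higher by 0.80 (adjusted p = 0.18), a call lost without WTAL replicate 1 (0.63) or WTCR replicate 1 (0.66). In Dgat1-/-AL against WTAL 0 were called higher (0.465% of all probe sets) and 0 lower (0.76%). At an unadjusted limma p under 0.05, 3 were higher (1.95%) and 0 lower (2.62%). Leaving out WTAL replicate 3 or Dgat1-/-AL replicate 1 gave 2 higher, and leaving out Dgat1-/-AL replicate 3 gave 1 lower. In WTCR against Dgat1-/-AL 5 were higher (4.66% of all probe sets) and 2 lower (3.93%, median -0.01), a share of lower calls near that of all probe sets, the lower ones being Taco1 (-0.48), a translational activator of mitochondrial COX1, and Sdhaf4 (-0.39), an assembly factor of complex II. The Taco1 call was lost without WTCR replicate 2 (-0.35), and the Sdhaf4 call with any single WTCR array left out (-0.36, -0.42 and -0.40), and also when Dgat1-/-AL replicate 2 (-0.25) or replicate 3 (-0.36) was dropped.

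Of 20 probe sets of electron carriers and coenzyme Q synthesis 6 were higher (4.25% of all probe sets) and 0 lower (3.81%) in WTCR than in WTAL (median 0.17). Of these 6, 3 were probe sets of Cycs. Leaving out the array labelled WTAL replicate 2 gave 5 higher and 1 lower, and leaving out WTCR replicate 3 gave 3 higher and 1 lower. In this list 5 were higher (4.66%) and 0 lower (3.93%) in WTCR than in Dgat1-/-AL (median 0.21). In Dgat1-/-AL against WTAL 0 were higher (0.465%) and 0 lower (0.76%). In the direct comparison the number higher was 3 when WTCR replicate 3 or Dgat1-/-AL replicate 2 was left out and 8 when Dgat1-/-AL replicate 3 was, and dropping WTCR replicate 2 gave 1 lower. Coq10b, a coenzyme Q binding protein needed for respiration, had 9.16, 7.88 and 8.29 in WTCR, 6.71, 6.68 and 6.29 in Dgat1-/-AL and 6.53, 7.43 and 7.01 in WTAL (1.45 against WTAL, adjusted p = 0.056, and 1.88 against Dgat1-/-AL, adjusted p = 0.023), and its WTCR arrays, though far apart, lay above all others. Coq7 and Coq6, hydroxylases of coenzyme Q synthesis, were higher by 0.62 (adjusted p = 0.041) and 0.44 (adjusted p = 0.040). Cycs, which encodes cytochrome c, was higher by 0.82, 0.75 and 0.62 at its 3 probe sets (adjusted p = 0.19 to 0.27). The Cycs calls depended on single arrays, and all 3 were lost without WTAL replicate 3 (0.70, 0.67 and 0.50), WTCR replicate 2 (0.77, 0.66 and 0.56) or WTCR replicate 3 (0.67, 0.62 and 0.52), and that at 0.75 also without the array labelled WTAL replicate 2 (0.72). Etfa, Etfb and Etfdh, which carry electrons from fatty acid oxidation to coenzyme Q, were not called (0.13, -0.05 and 0.25). Pdss2, which takes part in making the side chain of coenzyme Q, had 5.78, 6.04 and 5.95 in WTCR and 6.15, 6.29 and 6.21 in WTAL (-0.30 ± 0.08, adjusted p = 0.10), with every WTCR array below every WTAL array but under the minimum fold. Without Dgat1-/-AL replicate 1, 2 Cycs probe sets were called higher in Dgat1-/-AL than in WTAL (0.58 and 0.49).

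Of 16 probe sets of transcription factors and coactivators of these genes 5 were higher (4.25% of all probe sets) in WTCR than in WTAL. Lower were 0 (3.81%), and the median was 0.21. In WTCR against Dgat1-/-AL 4 were higher (4.66%) and 0 lower (3.93%), with a median of 0.23. In Dgat1-/-AL against WTAL 0 were higher (0.465%) and 0 lower (0.76%). Ppargc1a, the coactivator PGC-1alpha, had 7.65, 7.21 and 7.50 in WTCR, 6.81, 6.35 and 6.69 in Dgat1-/-AL and 6.65, 6.52 and 6.16 in WTAL at the probe set with the larger change (1.01 against WTAL). WTCR was above both ad libitum groups, which overlapped. Against Dgat1-/-AL, the other Ppargc1a probe set (0.57) and Ppargc1b (0.40) were called, but both calls were lost without WTCR replicate 1 (0.51 and 0.27), which left 2 of the 4. That of Ppargc1a was also lost without WTCR replicate 3 (0.50) or Dgat1-/-AL replicate 1 (0.39), and that of Ppargc1b without WTCR replicate 2 (0.33), Dgat1-/-AL replicate 2 (0.37) or Dgat1-/-AL replicate 3 (0.40). Tfb2m, a factor of mitochondrial transcription, was higher by 0.39 at both probe sets (adjusted p = 0.053 and 0.054), and neither was called without WTAL replicate 1 (0.35) or WTCR replicate 1 (0.33), so that 3 of the 5 calls were left. Nrf1, whose motif is among those described above, had 6.74, 6.87 and 7.03 in WTCR, 6.19, 6.45 and 6.49 in Dgat1-/-AL and 6.68, 6.66 and 6.66 in WTAL. It was higher in WTCR than in Dgat1-/-AL by 0.50 (adjusted p = 0.036), and its difference of Dgat1-/-AL from WTAL was -0.29 (adjusted p = 0.97). Esrra, Gabpa, Yy1 and Tfam were not called (0.23, 0.20, 0.22 and -0.02 in WTCR against WTAL).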

How the data were processed

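Liver RNA of 9 mice was hybridised to Affymetrix Mouse Gene 1.0 ST arrays. The authors deposited log2 signals, made with RMA per the submitters' processing notes (background correction, quantile normalization and summary by probe set). They were used as deposited, with no filter on low signals. Gene symbols came from the platform annotation: 21780 of the 28815 probe sets carried 1 symbol, 1605 several and 5430 none. All 82 member genes have the same symbol in RefSeq GRCm38.p6. Coordinates are given only for the promoter windows shown, which came from RefSeq. The array annotation was used for gene names and identifiers only.

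With limma 3.58.1 in R 4.3.3, 1 mean per group and 1 spread were fitted over the 9 arrays to all probe sets, followed by eBayes, with two-sided tests. A call needed both a fold above 1.3 and an unadjusted p below 0.05, as in the study's rule, and p was also adjusted over all probe sets. The fit was run on simulated data with independent noise for each probe set and array. That simulation lacks the deviations shared by probe sets on an array, so it does not show how these affect the calls. Replicate numbers were checked for pairing by the correlation of deviations from group means over all probe sets. They paired WTCR with Dgat1-/-AL (0.477, 0.252 and 0.211), but not WTCR with WTAL (-0.233, 0.045 and -0.075) or Dgat1-/-AL with WTAL (-0.325, -0.086 and -0.229).

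The named genes were, by rule, the called members of largest fold, those of smallest p, the complex II subunits, the tissue isoforms and called genes of the other lists; members outside it were named after their values were seen. The members, lists and tests were chosen with earlier results of these data known. Alternatives were array centring, a filter at the 25th percentile, other variance models, the replicate block, the 6 arrays compared, other thresholds, 1 probe set per gene and leaving out each array. The number of arrays limits the precision.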

Additional observations from a re-analysis of the deposited data

How the results depend on the processing

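In WTCR against WTAL and in WTCR against Dgat1-/-AL, 0 members were lower under every alternative run. Requiring an adjusted p under 0.05 gave 19 higher in WTCR against WTAL and 13 in WTCR against Dgat1-/-AL, and an unadjusted p under 0.05 with no minimum fold gave 51, 47 and, in Dgat1-/-AL against WTAL, 3. Leaving out 1 array moved the number higher to between 26 and 38 in WTCR against WTAL, 19 and 33 in WTCR against Dgat1-/-AL, and 0 and 5 in Dgat1-/-AL against WTAL, where 0 to 3 were lower. With the replicates 1 of all groups left out, an alternative chosen after seeing the data, 6 were higher in Dgat1-/-AL against WTAL. With the replicate number as a block over all 9 arrays the counts were 34, 0 and 23, and the block over the 6 WTCR and Dgat1-/-AL arrays, also chosen after seeing the data, gave 32. Centring the arrays gave 35, 0 and 25.

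With 1 probe set per gene the complex I median in WTCR against WTAL was 0.21 and that of complex III 0.30, since genes with several probe sets then count once. Leaving out 1 array moved the complex I median in WTCR against WTAL to between 0.21 and 0.34. In WTCR against Dgat1-/-AL it moved the median of the members to between 0.16 and 0.37, that of complex III to between 0.17 and 0.41 and that of complex V to between 0.14 and 0.48, and in Dgat1-/-AL against WTAL that of complex III to between -0.10 and 0.03. Of the other 285 comparisons of medians and 105 of counts with an alternative, all stayed within the spread between arrays or within 1.5 times. Among single genes no called value changed sign. Counted once for each probe set, comparison and alternative, a call was lost in 153 cases and gained in 138. A call lost under several alternatives thus counts several times. The causes were not tested.

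For the other lists, leaving out 1 array was chosen after seeing the data. In WTCR against WTAL the number of assembly factor probe sets higher stayed between 4 and 5 and the number lower moved to between 0 and 3, carriers and coenzyme Q genes higher to between 3 and 6 and lower to between 0 and 1, and transcription factors higher to between 3 and 5. In WTCR against Dgat1-/-AL assembly factors lower moved to between 0 and 3, carriers higher to between 3 and 8 and lower to between 0 and 1, and transcription factors higher to between 2 and 6. In Dgat1-/-AL against WTAL assembly factors and carriers higher moved to between 0 and 2, and assembly factors lower to between 0 and 1. The mitochondrially encoded probe sets had 0 calls in all these fits.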
